A study of Mus musculus with 18 samples.

Results

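One intratumoral (IT) injection of CDN2 (20 µg) was compared with one IT injection of PBS in subcutaneous B16F10 tumors, over every gene expressed. The comparison rested on 4 of the 18 tumors of the series, 2 given CDN2 (20 µg) and 2 given PBS, chosen by their treatment, amount and number of doses. B16F10 is a pigmented mouse melanoma cell line, and the tumors grew in the right flank of female C57BL/6 mice bought at 5 to 6 weeks of age. CDN2, named CL656 in the sample labels, is cAIM(PS)2 Difluor, a cyclic dinucleotide of the 3′-3′ type that was injected here without a vesicle. Whole tumors were taken 24 h after the injection, and their RNA was sequenced and deposited as estimated read counts per gene. Other tumors of the same series were given 1 dose of unloaded extracellular vesicles (EVs), of exoCDN2 (0.1 µg, the same compound carried in EVs) or of CDN2 (100 µg), or were given 2 doses of PBS, exoCDN2 (0.1 µg) or CDN2. These are used below only where CDN2 (20 µg) was set against them, and all mice carried the same tumor line. Each group held 2 tumors.

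STING is a receptor in the membrane of the endoplasmic reticulum that binds cyclic dinucleotides, which cells normally make through cGAS when DNA appears in the cytoplasm. Bound STING recruits the kinase TBK1, and the transcription factors IRF3 and NF-κB then switch on interferon beta and inflammatory cytokines. Secreted interferon acts on neighboring cells through a transcription factor complex that includes STAT2 and IRF9 and binds the interferon-stimulated response element in front of antiviral genes. STING is present in many cell types of a tumor, endothelial cells and leukocytes among them, and endothelium depends on VEGF and Notch signalling for the growth of new vessels.

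The tumors matched their label as melanoma. Mlana, Pmel, Tyrp1, Dct and Tyr, all genes of the pigment cell, lay between 631 and 7663 CPM (counts per 1000000, after scaling to the normalized library size) in the 4 tumors. The 4 libraries held 39179959 to 48388504 expected counts. Log levels of the 2 CDN2 (20 µg) tumors correlated over genes with r = 0.9923 and those of the 2 PBS tumors with r = 0.9981, a description over genes that are not independent replicates. Transcripts of other tissues differed between the tumors. Summed levels of 20 keratinocyte genes were 271 and 155 CPM with PBS and 18.03 and 7.94 CPM with CDN2 (20 µg), and Krt1, a keratin of differentiated skin, had no count in either CDN2 tumor. Summed levels of 5 erythroid genes were 192 and 144 CPM with PBS and 1283 and 2920 CPM with CDN2 (20 µg).

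Of 16927 genes with enough counts, 532 (3.14%) changed, of which 382 (2.26%) were higher and 150 (0.886%) lower with CDN2 (20 µg) than with PBS. A gene was called when its ratio exceeded 2 and its Benjamini-Hochberg adjusted p was under 0.05 in edgeR's quasi-likelihood test, fitted over 16 tumors. Among called genes, the higher moved further than the lower. Wide differences without a call are left out of this contrast, such as those of 20 keratinocyte genes (median log2 fold change -4.61, none called). The median size of the log2 fold change was 2.25 for the 382 higher genes and 1.74 for the 150 lower genes, and 107 higher against 13 lower genes moved by more than 8-fold. The lower genes were also weakly expressed, with a median of 4.28 CPM in the PBS tumors against 7.5 CPM for the higher genes and 14.6 CPM for genes not called. The median log2 fold change of all tested genes was -0.004. Because whole tumors were measured, fewer cells of a type and less RNA per cell cannot be told apart.

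**Figure D1:**
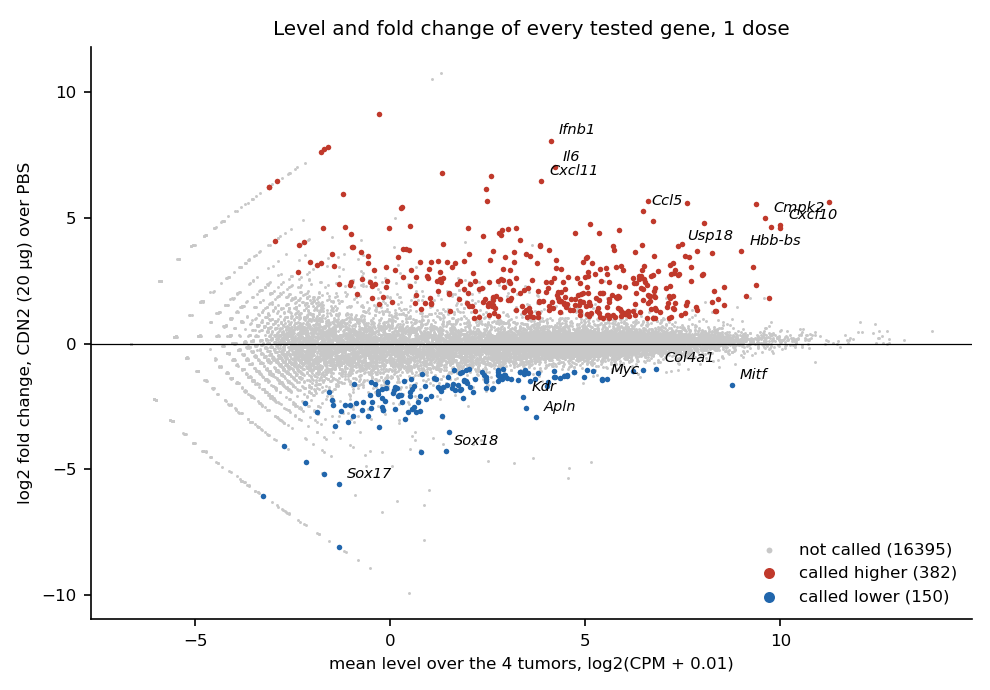
Log2 fold change of CDN2 (20 µg) over PBS (vertical axis) against the mean level over the 4 tumors in log2(CPM + 0.01) (horizontal axis), with 1 point per tested gene. The 382 genes called higher (red) reach further from 0 than the 150 called lower (blue), and the lower calls lie mostly among weakly expressed genes.

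The 2 CDN2 (20 µg) tumors differed from each other in the levels of the changed genes. Whether their response or their content of cells differed was not tested. Tumor 2 lay above tumor 1 for 343 of the 382 higher genes, with a median ratio of 1.36 between them, and 55 of these genes were more than 2-fold apart. Among the 150 lower genes tumor 2 lay below tumor 1 for 90, with a median ratio of 0.905. The PBS tumors differed little, with median ratios of 1.02 over the higher and 0.999 over the lower genes. The count of changed genes was 199 without CDN2 tumor 2 and 167 or 176 without PBS tumor 1 or 2, against 555 without CDN2 tumor 1. Of 177 changed genes examined by name, 73 passed the test without each of the 4 tumors in turn, 57 of 106 higher and 16 of 71 lower. A group with a tumor left out holds 1 tumor, which was assumed to vary like the other groups, so these fits take no spread from that group. Some counts of gene lists given further on also moved by more than 1.5 times under other settings. With no filter on low counts 24 cytokine and acute-phase genes rose in place of 13, 13 genes of interferon-linked metabolism in place of 6, 10 neutrophil genes in place of 2 and 7 p53 targets in place of 4. With tumors given 2 doses of PBS added to the controls 3 interferon-inducible GTPases rose in place of 9, 11 cell death genes in place of 7 and 13 immediate-early genes in place of 8.

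The interferon response led the higher genes. Of 49 antiviral interferon-stimulated genes tested, 39 rose and none fell, with a median log2 fold change of 2.21 (all genes, -0.004), and 29 to 37 rose when any 1 tumor was left out. Usp18, a protease that removes ISG15 from proteins and dampens the interferon receptor, stood at 306.5 and 319.8 CPM with CDN2 (20 µg) and at 21.9 and 20.9 CPM with PBS. The CDN2 tumors lay close together and far above both PBS tumors (log2 fold change 3.87 ± 0.23 (SE), adjusted p = 1.33e-05). Cmpk2, a mitochondrial nucleotide kinase next to Rsad2 in the genome, stood at 1303 and 1701 CPM against 48.6 and 45.4 CPM (5.0 ± 0.30, adjusted p = 1.33e-05). Rsad2 (viperin), which makes a chain-terminating nucleotide, reached 3807 and 5706 CPM against 105 and 89.2 CPM (5.61 ± 0.43, adjusted p = 2.79e-05). Rsad2 was thus the most abundant of the antiviral genes named here in both CDN2 tumors. Ifit1, which binds foreign RNA caps, stood at 942.5 and 1631 CPM against 28.2 and 27.6 CPM (5.53 ± 0.57, adjusted p = 0.00019). Isg15 (log2 fold change 3.47), Mx2 (4.50), Oasl2 (2.91), Rtp4 (3.12), Dtx3l (2.27) and the antibody receptor and ubiquitin ligase Trim21 (2.61) also rose, with adjusted p of 2e-05 or 2.25e-05. All of these calls held without each tumor in turn.

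**Figure D2:**
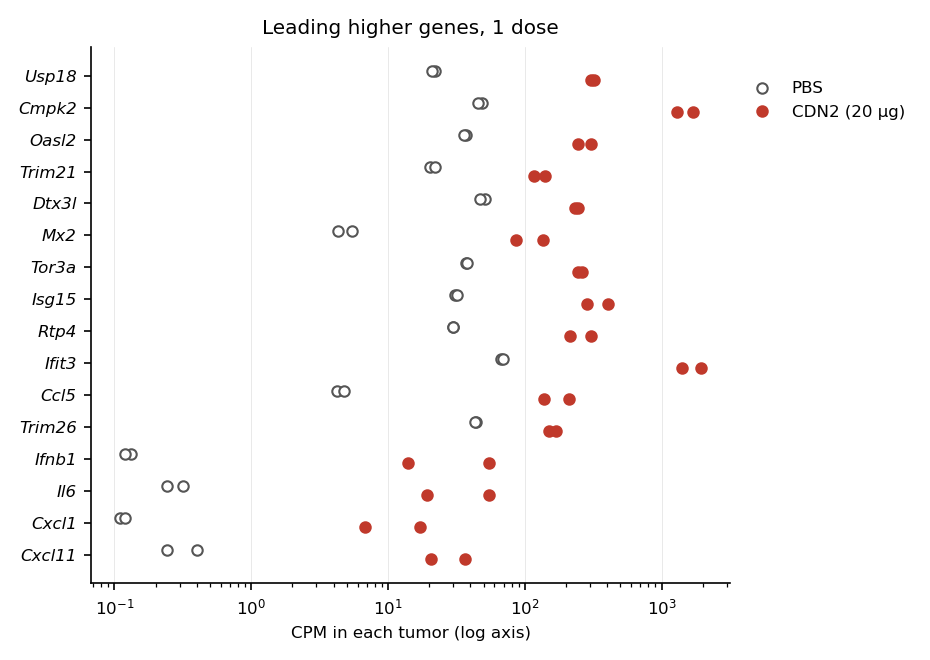
Level in CPM (log axis) of the leading higher genes in each PBS tumor (open circles) and each CDN2 (20 µg) tumor (red). By the choice of genes the 2 CDN2 tumors lie above the 2 PBS tumors for every gene plotted, and for Ifnb1 the CDN2 tumors differ most, at 14 and 54.9 CPM.

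The promoters of the higher genes often carried the interferon-stimulated response element core. Its letters were searched as GAAA, any 2 bases and GAAA, on either strand, in RefSeq windows from 250 bases before to 50 bases after each transcription start (build GRCm38.p6). Of 278 higher genes with a window, 65 (23.4%) held the core, against 0 of 101 matched lower genes and 409 of 11505 genes not called (3.55%), and 3.44% of all 32851 windows held it. The NF-κB letters, searched as GGGA, any base and TTTCC on either strand, stood in 9 of the 278 higher genes (3.24%) and 56 of 11505 genes not called (0.487%). They stood in 0 of the 101 lower genes, which says little at so low a share. The 3 windows below belong to the 3 higher genes with the smallest p that held the core and show how it was placed. The core is in capitals, with overlapping matches run together, and each window reads 5′ to 3′ on the strand of the gene.
Trim21, chr7:102565433-102565732, minus strand: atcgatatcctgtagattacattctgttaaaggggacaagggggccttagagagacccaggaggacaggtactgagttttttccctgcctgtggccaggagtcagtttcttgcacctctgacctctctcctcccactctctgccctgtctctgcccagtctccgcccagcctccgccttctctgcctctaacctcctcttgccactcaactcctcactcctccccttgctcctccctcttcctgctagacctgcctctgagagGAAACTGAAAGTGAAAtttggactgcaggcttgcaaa
Isg15, chr4:156200769-156201068, minus strand: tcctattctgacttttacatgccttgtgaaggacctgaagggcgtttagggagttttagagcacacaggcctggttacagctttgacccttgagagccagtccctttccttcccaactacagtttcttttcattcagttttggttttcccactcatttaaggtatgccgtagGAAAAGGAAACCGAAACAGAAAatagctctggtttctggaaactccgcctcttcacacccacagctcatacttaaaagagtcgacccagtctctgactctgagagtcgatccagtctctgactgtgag
Ifit3, chr19:34583279-34583578, plus strand: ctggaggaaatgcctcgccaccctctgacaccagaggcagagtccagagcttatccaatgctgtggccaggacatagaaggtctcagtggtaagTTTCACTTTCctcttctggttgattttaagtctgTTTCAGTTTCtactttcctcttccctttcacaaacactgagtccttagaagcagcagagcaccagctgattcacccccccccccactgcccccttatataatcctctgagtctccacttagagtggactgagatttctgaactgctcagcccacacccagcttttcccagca
Isg15 held 3 overlapping matches that began 78 to 66 bases before the start, Ifit3 held 2 separate matches at 156 and 122 bases before it, and Trim21 held 2 overlapping matches at 13 and 19 bases after it. Ifit3, a partner of Ifit1, stood at 1415 and 1935 CPM with CDN2 (20 µg) against 67.0 and 69.8 CPM with PBS (4.61 ± 0.34, adjusted p = 2.35e-05). A match is a description of letters and not a measured binding site.

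Genes that sense nucleic acid and relay interferon rose in part. In a list of 22 genes of STING and interferon signalling, written after the values were seen, 10 rose and none fell, with a median log2 fold change of 0.79. Stat2 stood at 140.5 and 140.4 CPM against 31.1 and 29.5 CPM (2.21 ± 0.20, adjusted p = 8.51e-05), and Irf9 at 86.0 and 90.5 CPM against 38.5 and 36.9 CPM (1.23 ± 0.11, adjusted p = 8.73e-05). For both genes the tumors of each group lay close together and the groups were far apart. Irf7, which extends interferon production, rose (2.45 ± 0.27, adjusted p = 0.000277), as did the RNA sensors Ddx58 (RIG-I, 2.22), Ifih1 (MDA5, 3.43) and Tlr3 (2.31). The gene of STING itself, Tmem173, stood at 77.4 and 84.2 CPM against 55.2 and 56.5 CPM and did not pass (0.53 ± 0.16, adjusted p = 0.0895), nor did Tbk1 (0.39 ± 0.14, adjusted p = 0.187). Trex1, the exonuclease that clears cytoplasmic DNA, rose (3.38 ± 0.43, adjusted p = 0.000926). Cgas rose as well (1.55 ± 0.24, adjusted p = 0.00375), but without PBS tumor 1 or 2 its adjusted p was 0.0554 or 0.0599.

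Families of interferon-inducible effectors followed the same direction. Of 18 interferon-inducible GTPases, which attack the vacuoles of pathogens, 9 rose and none fell (median log2 fold change 1.72). That count depended on single tumors, with 2 genes called without CDN2 tumor 2, without PBS tumor 1 or without PBS tumor 2, and on the control, with 16 called against unloaded EVs. Gbp5, which promotes inflammasome assembly, was called without each tumor, at 270.5 and 395.1 CPM against 19.9 and 22.8 CPM (3.96 ± 0.39, adjusted p = 0.000142). Irgm2 was also called without each tumor (2.07 ± 0.25, adjusted p = 0.000625). Of 12 PYHIN genes, a cluster of nucleic acid sensors listed after the values were seen, 11 rose (median 2.53), and 11, 3, 2 and 3 rose without CDN2 tumor 1, CDN2 tumor 2, PBS tumor 1 and PBS tumor 2. Ifi207 stood at 43.6 and 73.7 CPM against 8.26 and 8.28 CPM (2.83 ± 0.41, adjusted p = 0.00217). PYHIN genes are near copies of each other and lie side by side, so reads may be split unevenly among them.

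Genes of interferons and of several inflammatory cytokines rose. Of 35 cytokine and acute-phase genes 13 rose and none fell, with a median log2 fold change of 2.25. Ifnb1, interferon beta itself, stood at 14 and 54.9 CPM with CDN2 (20 µg) and at 0.133 and 0.12 CPM with PBS, and the 2 CDN2 tumors lay several-fold apart (8.06 ± 1.18, adjusted p = 0.00306). Ifna2 and Ifna4 had 118 and 44 counts in the CDN2 tumors and none in the PBS tumors. With a floor of 3 counts over the PBS group they were at least 49.5-fold and 18.5-fold higher, while the 95% counting interval of the ratio of PBS to CDN2 reached up to 0.0252 and 0.0695. Both lost their calls without CDN2 tumor 2 or either PBS tumor, and near-identical copies of interferon alpha genes make their identity uncertain. Il6, a cytokine of fever and the acute phase, stood at 19.1 and 54.4 CPM against 0.243 and 0.32 CPM (7.01 ± 1.12, adjusted p = 0.00407). Tnf (3.66), Il27 (5.68), Il1b (4.13), Lif (3.69), Il10 (2.93), Il15 (2.01), the macrophage growth factor Csf1 (2.25) and the pattern-binding Ptx3 (4.39) rose too. Against unloaded EVs 14 of the 35 genes rose. Ptx3, at 18.7 and 12.4 CPM with EVs, did not pass there (1.70, adjusted p = 0.17). Tnfsf10 (TRAIL), a death ligand, rose with a small spread (2.98 ± 0.32, adjusted p = 0.000248), at 33.0 and 34.2 CPM against 3.84 and 4.66 CPM. Without PBS tumor 1 or PBS tumor 2 only 1 of the 35 genes was called, Tnfsf10 being called in both cases, and without CDN2 tumor 2 8 were. The adjusted p of Ifnb1 was then 0.0608 without PBS tumor 1 and 0.063 without PBS tumor 2, and that of Il6 was 0.0786 and 0.0718. Tnf, Il27, Il1b, Lif, Il10, Il15, Csf1 and Ptx3 lost their calls in the same 2 fits, with adjusted p from 0.0602 for Lif to 0.228 for Il15.

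Chemokines rose in part. Of 30 tested, 10 rose and none fell (median log2 fold change 0.85), and 6, 4 and 4 rose without CDN2 tumor 2, PBS tumor 1 and PBS tumor 2. Ccl5, which attracts T cells, stood at 137 and 211 CPM against 4.24 and 4.8 CPM (5.27 ± 0.40, adjusted p = 2.59e-05). Cxcl10, a ligand of CXCR3 on T and NK cells, and its relative Cxcl11 also rose. The gene annotation used here classes Cxcl11, and Mx2 above, as polymorphic pseudogenes. Whether their RNA makes a working protein in these tumors was not tested. Cxcl10 stood at 1601 and 2293 CPM against 72.2 and 76.0 CPM (4.72 ± 0.43, adjusted p = 8.59e-05), and Cxcl11 at 20.8 and 36.5 CPM against 0.243 and 0.4 CPM (6.45 ± 0.61, adjusted p = 0.000119). Ccl7, a monocyte attractant, rose by a log2 fold change of 2.67 (adjusted p = 0.0013). Cxcl1, a ligand of the neutrophil receptor CXCR2, stood at 6.8 and 17.0 CPM against 0.11 and 0.12 CPM (6.65 ± 1.12, adjusted p = 0.00548), with an adjusted p of 0.0897 or 0.0921 without PBS tumor 1 or 2. Its relative Cxcl2 stood at 3.85 and 10.2 CPM against 0.486 and 0.36 CPM and did not pass (adjusted p = 0.0681).

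Genes of NF-κB and of feedback on both pathways were higher. In a list of the 5 NF-κB subunits, written after the values were seen, 4 rose, but none was called without CDN2 tumor 2 or without either PBS tumor. Of 26 negative feedback regulators 14 rose and none fell (median log2 fold change 1.74), and 9, 8 and 7 rose without CDN2 tumor 2, PBS tumor 1 and PBS tumor 2. Tnfaip3 (A20), which removes ubiquitin from NF-κB signalling complexes, stood at 70.3 and 125.4 CPM against 7.35 and 6.00 CPM (3.87 ± 0.42, adjusted p = 0.000277). Nfkbie, an inhibitor that holds NF-κB in the cytoplasm, rose with closely spaced tumors at 77.7 and 86.0 CPM against 10.6 and 9.93 CPM (3.00 ± 0.32, adjusted p = 0.000244). Socs1, which blocks JAK kinases, rose by 3.20 ± 0.45 (adjusted p = 0.00173), and Cd274 (PD-L1), the ligand of the T cell checkpoint receptor PD-1, rose from 29.2 and 30.7 CPM to 229.1 and 318.9 CPM (3.19 ± 0.46, adjusted p = 0.00217). Genes outside the lists, picked after their values were seen, included the pattern receptor Tlr2 (3.45 ± 0.34, adjusted p = 0.000156), its adaptor Myd88 (1.99, adjusted p = 0.00193) and the kinase Ripk2 (3.10, adjusted p = 2.86e-05). Ccrl2, a non-signalling receptor that presents chemerin, stood at 133 and 251.2 CPM against 3.33 and 4.26 CPM (5.66 ± 0.66, adjusted p = 0.000468).

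Immediate-early transcription factors, genes that respond without new protein, were higher in part. In a list of 22 written after the values were seen, 8 rose and 2 fell, and 5 rose without CDN2 tumor 2 or either PBS tumor. Jun stood at 253.5 and 488.4 CPM against 45.7 and 44.2 CPM (3.05 ± 0.36, adjusted p = 0.000484). Junb (2.74), Fos (1.88), Atf3 (3.09) and Csrnp1 (3.90) rose beside it, with adjusted p from 0.000945 to 0.00173. The 2 that fell were Myc and Nr4a1. Myc, a driver of cell growth, stood at 26.3 and 19.7 CPM against 62.9 and 62.4 CPM (-1.45 ± 0.22, adjusted p = 0.00306), with an adjusted p of 0.0635 without CDN2 tumor 2. Nr4a1 was at 64.3 and 31.9 CPM against 101.4 and 102.3 CPM (-1.08 ± 0.27, adjusted p = 0.0497), and its call was lost without CDN2 tumor 2 (0.34), PBS tumor 1 (0.233) or PBS tumor 2 (0.236).

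Some cell death genes rose, and no cell cycle gene was called. Of 31 cell death genes 7 rose and none fell (median log2 fold change 0.88), and 4 to 8 rose with 1 tumor left out, the fewest without PBS tumor 1. Bbc3 (PUMA), a trigger of mitochondrial apoptosis, stood at 19.9 and 19.1 CPM against 8.12 and 8.47 CPM (1.23 ± 0.16, adjusted p = 0.00124). Xaf1 (1.86 ± 0.23, adjusted p = 0.000721) and Ripk1 (1.10 ± 0.13, adjusted p = 0.000592), a kinase of inflammatory death, rose with small spread, though Ripk1 was no longer called without CDN2 tumor 2, where its adjusted p was 0.00947 and its ratio fell under 2. Of 18 p53 targets 4 rose, Bbc3, Cdkn1a, Plk2 and Btg2, with a median of 0.40. Without PBS tumor 1 or PBS tumor 2 only 1 was called, and without CDN2 tumor 2 2 were. Cdkn1a (p21), an inhibitor of cyclin-dependent kinases, stood at 370 and 300.4 CPM against 124.1 and 119.3 CPM (1.46 ± 0.26, adjusted p = 0.00787), with an adjusted p of 0.087 or 0.101 without PBS tumor 1 or 2. None of 44 cell cycle genes was called (median -0.06), and none of 25 glycolysis and hypoxia genes (0.11) or 23 sterol genes (0.02).

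The count of antigen presentation genes called differed with the control. Of 17 genes of MHC class I presentation 1 rose, Tapbp (tapasin), which loads peptide onto class I (1.30 ± 0.24, adjusted p = 0.00986), and none was called without CDN2 tumor 2 or either PBS tumor, where the adjusted p of Tapbp lay between 0.101 and 0.13. Against unloaded EVs in place of PBS 12 of the 17 were higher. H2-K1, a class I heavy chain, stood at 1040 and 1429 CPM against 805 and 880 CPM (0.55 ± 0.37, adjusted p = 0.518), so that it was abundant with PBS as well. The median of the 17 was 0.55, and that of 12 class II genes, of which none was called, was 0.10. Of 21 genes of interferon-linked metabolism 6 rose (median 1.84), with 4, 2, 1 and 2 without CDN2 tumor 1, CDN2 tumor 2, PBS tumor 1 and PBS tumor 2. Acod1, which makes itaconate in activated macrophages, stood at 54.3 and 100.4 CPM against 3.91 and 3.36 CPM (4.41 ± 0.79, adjusted p = 0.0078), but its adjusted p lay between 0.0586 and 0.118 without CDN2 tumor 2, PBS tumor 1 or PBS tumor 2. Among genes outside the lists, picked after their values were seen, Has2, a hyaluronan synthase, stood at 11.4 and 16.5 CPM against 0.442 and 0.76 CPM (4.53 ± 0.60, adjusted p = 0.00121). The growth factor Tgfb2 (1.68 ± 0.20, adjusted p = 0.00047), the neurotrophin Bdnf (4.25 ± 0.56, adjusted p = 0.00118) and Tiam2, an activator of RAC1 (1.85 ± 0.19, adjusted p = 0.000171), also rose and kept their calls without each tumor.

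**Figure D3:**
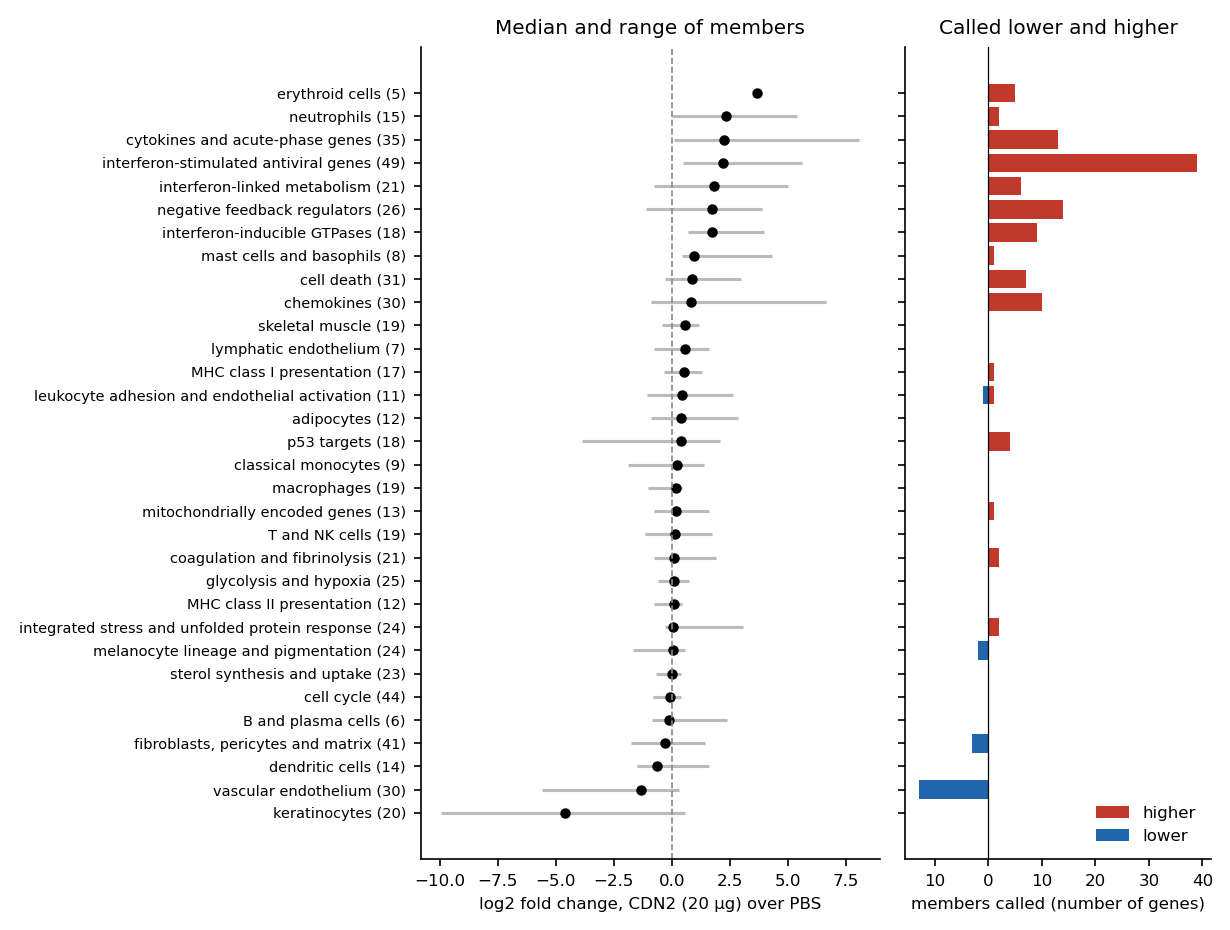
For each gene list (number of tested members in brackets), the median (point) and range (line) of the log2 fold change of CDN2 (20 µg) over PBS on the left, with the median of all tested genes as a dashed line, and the number of members called higher (red) or lower (blue) on the right. The vascular endothelium has 13 of 30 members called lower, the keratinocyte list lies lowest with no call, and the interferon, cytokine and feedback lists lie on the right.

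Many of the lower genes were genes of blood vessels, though the lower gene with the smallest p, 2900026A02Rik, was outside the endothelial lists. Of 30 genes of vascular endothelium 13 fell and none rose, with a median log2 fold change of -1.34 and a range from -5.60 to 0.33, against 0.886% of all genes that fell. For 28 of the 30 both CDN2 (20 µg) tumors lay below both PBS tumors, as they did for 4989 of all tested genes (29.5%). Kdr (VEGF receptor 2, chr5:75932827-75978458), the main receptor through which VEGF drives vessel growth, stood at 4.45 and 3.41 CPM with CDN2 (20 µg) and at 17.4 and 17.1 CPM with PBS. The tumors of each group lay close together and the groups were far apart (-2.13 ± 0.26, adjusted p = 0.000643), and the call held without each tumor. Apln (apelin), made by endothelial cells at the tips of growing vessels, stood at 3.6 and 2.6 CPM against 27.8 and 19.1 CPM (-2.91 ± 0.35, adjusted p = 0.000569) and also held. Esm1, another gene of tip cells, stood at 3.67 and 2.82 CPM against 20.9 and 17.3 CPM (-2.55 ± 0.41, adjusted p = 0.00453), with an adjusted p of 0.0831 without CDN2 tumor 2. Genes of endothelial cell junctions also fell. Cldn5, of the tight junction, stood at 0.65 and 0.643 CPM against 2.45 and 3.04 CPM (-2.08 ± 0.44, adjusted p = 0.0184). Cdh5 (VE-cadherin), which joins endothelial cells, stood at 10.8 and 10.4 CPM against 26.7 and 26.2 CPM (-1.32 ± 0.26, adjusted p = 0.0124). Pecam1 (CD31) stood at 11.4 and 13.7 CPM against 29.5 and 32.8 CPM (-1.31 ± 0.25, adjusted p = 0.0124). None of these 3 calls held when any 1 of the 4 tumors was left out, where the adjusted p lay between 0.0827 and 0.175 for Cldn5, between 0.0701 and 0.144 for Cdh5 and between 0.076 and 0.118 for Pecam1. Vwf, stored in endothelial granules, stood at 16.4 and 19.0 CPM against 30.05 and 30.8 CPM and did not pass (-0.78 ± 0.24, adjusted p = 0.107).

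The number of endothelial genes called changed with the tumors used. It was 9 without CDN2 tumor 1, 3 without CDN2 tumor 2, and 5 without PBS tumor 1 or without PBS tumor 2. It was 21 with DESeq2, 20 in a fit of the 4 tumors alone, 20 with no filter on low counts and 21 without the 2 tumors given 2 doses of CDN2 (20 µg), while the median log2 fold change over all alternatives tried ranged from -1.40 to -1.08. The 30 genes summed to 412 and 411 CPM with CDN2 (20 µg) and to 552 and 537 CPM with PBS. Much of each sum came from Eng (endoglin), at 275 and 272 CPM against 223 and 212 CPM, which other cell types also express and which did not pass the test (0.33 ± 0.25, adjusted p = 0.601). Keratinocyte transcripts were lower in the same CDN2 tumors, and their part in these results was not tested. In EV tumors 1 and 2, where the 20 keratinocyte genes summed to 132.9 and 5.48 CPM, Kdr stood at 17.0 and 11.0 CPM and Pecam1 at 30.8 and 25.2 CPM. None of 7 genes of lymphatic endothelium was called (median 0.57). Of 11 tested genes of leukocyte adhesion and endothelial activation, Selp (P-selectin), by which activated vessels catch leukocytes, rose (2.61 ± 0.65, adjusted p = 0.0451) and Angpt2, an antagonist of the TIE2 receptor, fell (-1.06 ± 0.22, adjusted p = 0.017). Neither was called when any 1 tumor was left out (adjusted p from 0.0674 to 0.384 for Selp and from 0.0988 to 0.156 for Angpt2). Of 21 coagulation genes 2 rose, the clotting trigger F3 (tissue factor) (1.21 ± 0.26, adjusted p = 0.023) and the plasminogen activator Plat (1.30 ± 0.31, adjusted p = 0.035), and neither was called without CDN2 tumor 2, PBS tumor 1 or PBS tumor 2 (adjusted p from 0.172 to 0.262 for F3 and from 0.2 to 0.363 for Plat).

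**Figure D4:**
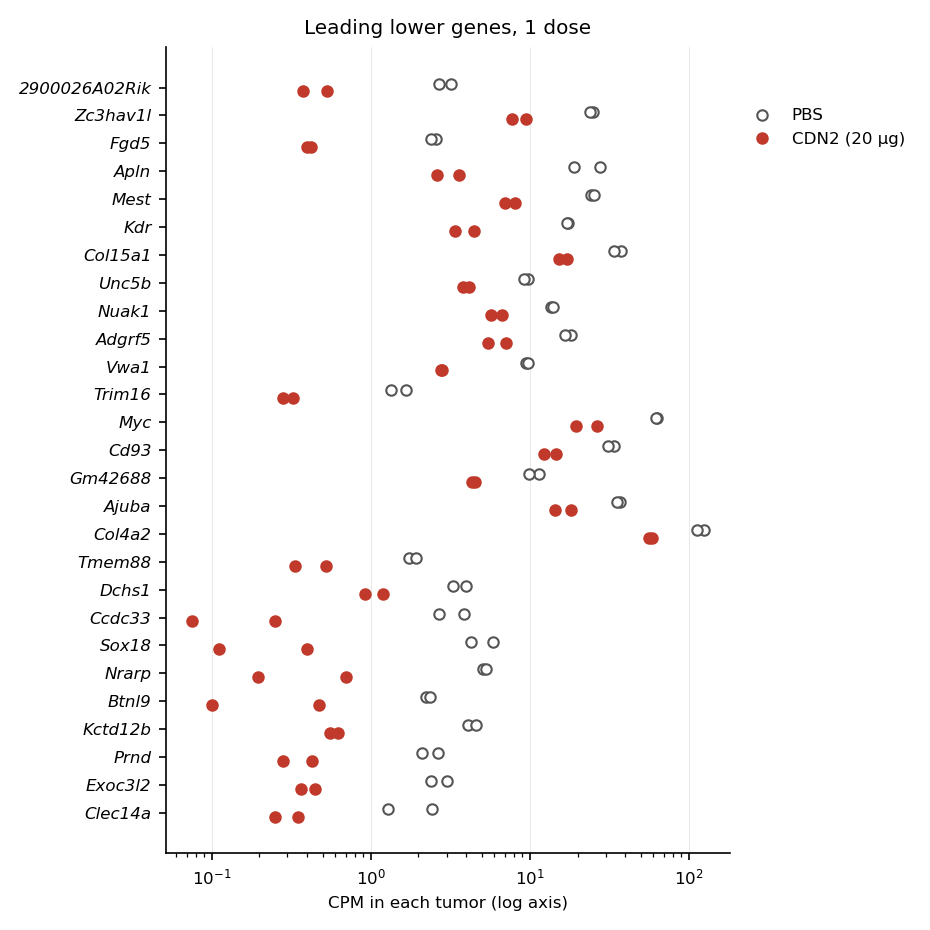
Level in CPM (log axis) of the leading lower genes in each PBS tumor (open circles) and each CDN2 (20 µg) tumor (red). By the choice of genes both CDN2 tumors lie below both PBS tumors for every gene plotted, as for Kdr at 4.45 and 3.41 CPM against 17.4 and 17.1 CPM.

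Some transcription factors and signalling genes of the endothelium fell as well. Sox17, a factor of arterial identity, had 1 count in the 2 CDN2 (20 µg) tumors together and 74 in the 2 PBS tumors, a ratio of 58.8 with a 95% counting interval from 10.2 to 2350 (adjusted p = 0.00231). Sox18, its relative, stood at 0.4 and 0.112 CPM against 4.28 and 5.88 CPM (-4.27 ± 0.69, adjusted p = 0.00439), with an adjusted p of 0.0751 without CDN2 tumor 2. In a list of 23 genes of VEGF and Notch signalling, written after the values were seen, 9 fell and none rose (median log2 fold change -0.84), with 6, 2, 4 and 4 falling without CDN2 tumor 1, CDN2 tumor 2, PBS tumor 1 and PBS tumor 2. Nrarp, a Notch target that restrains Notch, stood at 0.7 and 0.196 CPM against 5.12 and 5.34 CPM (-3.52 ± 0.60, adjusted p = 0.00602), with an adjusted p of 0.0808 without CDN2 tumor 2. The Notch ligand Dll4 (-2.17 ± 0.40, adjusted p = 0.0101), the receptor Notch4 (-1.50 ± 0.26, adjusted p = 0.00648) and the VEGF receptor Flt1 (-1.41 ± 0.23, adjusted p = 0.00509) fell with it. Dll4 and Notch4 were not called without CDN2 tumor 2, PBS tumor 1 or PBS tumor 2 (adjusted p from 0.0524 to 0.144), and Flt1 not without CDN2 tumor 2 (0.0871) or PBS tumor 1 (0.0645). The ligand Pgf, at 31.1 and 50.3 CPM against 17.7 and 14.4 CPM, went the other way and did not pass (1.34 ± 0.50, adjusted p = 0.195). A further 20 endothelial genes were collected from the lower calls themselves and so say nothing of direction. Among them Fgd5 (-2.60 ± 0.30, adjusted p = 0.000453), an exchange factor of endothelial cells at 0.4 and 0.419 CPM against 2.58 and 2.40 CPM, and Adgrf5 (-1.48 ± 0.22, adjusted p = 0.00272) were called without each tumor.

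Few genes of the supports of vessels were called. Of 41 genes of fibroblasts, pericytes and matrix 3 fell, all collagens of the vessel wall, and none rose (median log2 fold change -0.28). Of the 41, 14 lay above 0, and no pericyte gene of this list was called. Col15a1 stood at 15.3 and 17.1 CPM against 37.5 and 33.9 CPM (-1.14 ± 0.16, adjusted p = 0.00193) and was called without each tumor. The basement membrane chains Col4a1 (-1.0 ± 0.20, adjusted p = 0.0136) and Col4a2 (-1.04 ± 0.16, adjusted p = 0.00353) lay near the limit of 2-fold. Col4a1 was not called when any 1 tumor was left out (adjusted p from 0.0628 to 0.135), and Col4a2 was not called without CDN2 tumor 1, where its adjusted p was 0.0302, or PBS tumor 1 (0.0554). Genes that fell outside the lists and were picked after their values were seen included Pdgfb (-1.78 ± 0.43, adjusted p = 0.0413), by which endothelium recruits pericytes. The pericyte channel subunits Kcnj8 (-1.85 ± 0.45, adjusted p = 0.0424) and Abcc9 (-1.77 ± 0.41, adjusted p = 0.0322), picked in the same way, also fell. None of these 3 was called when any 1 tumor was left out, with adjusted p from 0.125 to 0.311.

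Few melanocyte genes were called. Of 24 genes of the melanocyte lineage 2 fell, Mitf and Kit, and none rose, with a median log2 fold change of 0.04. Mitf, the master regulator of melanocytes, stood at 244 and 170 CPM against 630 and 678 CPM (-1.66 ± 0.39, adjusted p = 0.0318). Kit, a growth factor receptor, stood at 5.42 and 4.84 CPM against 15.4 and 12.97 CPM (-1.47 ± 0.30, adjusted p = 0.0171). The groups did not overlap for either gene, which held for all 532 called genes. Neither Mitf nor Kit was called when any 1 tumor was left out. Sox10, which acts upstream of Mitf, stood at 437 and 218 CPM against 588 and 572 CPM and did not pass (-0.83 ± 0.32, adjusted p = 0.208).

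The remaining lower genes were of mixed kinds, and those named here were taken from the smallest p or the largest fold change, or picked after their values were seen where this is said. Zc3hav1l stood at 9.53 and 7.69 CPM against 25.1 and 23.9 CPM (-1.51 ± 0.17, adjusted p = 0.000367), and the kinase Nuak1 at 6.72 and 5.73 CPM against 13.6 and 13.9 CPM (-1.14 ± 0.17, adjusted p = 0.00231). The matrix protein gene Vwa1 (-1.78 ± 0.27, adjusted p = 0.00274) and the repressor Hic1 (-2.63 ± 0.43, adjusted p = 0.00461) also fell, the latter picked after its values were seen. These 4 calls held without each tumor. The smallest p of all lower genes was that of 2900026A02Rik, at 0.375 and 0.531 CPM against 3.18 and 2.68 CPM (-2.69 ± 0.30, adjusted p = 0.00036). Ccdc33 had the largest fold change of lower genes with a mean of at least 1 CPM. It stood at 0.075 and 0.252 CPM against 3.84 and 2.68 CPM (-4.32 ± 0.76, adjusted p = 0.00718), and was not called without CDN2 tumor 1 or PBS tumor 1. Mest, an imprinted gene expressed from the paternal copy, stood at 8.12 and 7.04 CPM against 24.2 and 25.2 CPM (-1.70 ± 0.21, adjusted p = 0.000608), and the RNA-binding protein gene Igf2bp1, picked after its values were seen, at 1.5 and 1.73 CPM against 5.01 and 5.14 CPM (-1.65 ± 0.27, adjusted p = 0.00453). Both were also called without each tumor. Some lower genes, also picked this way, had almost no counts left. Rptn (repetin), a gene of the skin surface, had 0 counts with CDN2 (20 µg) and 74 with PBS, at least 19.6-fold lower with a floor of 3 counts over the group, or 15.6-fold at the lower 95% counting limit. Wscd1 had 1 count against 55, a ratio of 43.7 with a 95% counting interval from 7.53 to 1760. Neither was called when any 1 tumor was left out (adjusted p from 0.0947 to 0.173 for Rptn and from 0.073 to 0.0964 for Wscd1).

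Markers of blood cells and skin moved unevenly. All 5 erythroid genes rose (median log2 fold change 3.67), and 4 or more rose without each tumor. Hbb-bs, a beta globin, stood at 559 and 1320 CPM against 82.8 and 64.8 CPM (3.67 ± 0.52, adjusted p = 0.00193), and Alas2, the heme enzyme of red cell precursors, at 17.0 and 36.9 CPM against 2.01 and 1.66 CPM (3.88 ± 0.52, adjusted p = 0.00124). CDN2 tumor 2 held more than 2 times the globin of tumor 1, and the globin genes are near-identical copies that share reads. Of 15 neutrophil genes 2 rose, Retnlg and the chemokine receptor Cxcr2 (median 2.35), and 1 was called without CDN2 tumor 1 and none without any of the other 3. Their summed level was 26.1 and 56.6 CPM against 10.7 and 11.2 CPM. No gene was called among 19 of macrophages (median 0.19), 9 of classical monocytes (0.24), 14 of dendritic cells (-0.64), 19 of T and NK cells (0.16) or 6 of B and plasma cells (-0.10). Of 8 genes of mast cells and basophils, Hdc, which makes histamine, rose (4.32 ± 0.81, adjusted p = 0.0104), with an adjusted p from 0.0798 to 0.139 without CDN2 tumor 2 or either PBS tumor. None of 20 keratinocyte genes was called although their median was -4.61. In a fit of the 4 tumors alone 14 of 19 were called lower, and with no filter on low counts 19 of 20 were. Krt14, for example, stood at 4.7 and 0.447 CPM against 88.1 and 47.7 CPM (-4.71 ± 2.21, adjusted p = 0.323).

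Unloaded EVs, exoCDN2 (0.1 µg) and CDN2 (100 µg) after the same 1 dose were set beside CDN2 (20 µg). Both direct comparisons below contain the same 2 CDN2 (20 µg) tumors, and amounts and carrier differ together in the first. Against CDN2 (20 µg), 103 genes (0.608%) differed in exoCDN2 (0.1 µg), 34 higher (0.201%) and 69 lower (0.408%). Against CDN2 (20 µg), 77 genes (0.455%) differed in CDN2 (100 µg), 39 higher (0.23%) and 38 lower (0.224%). Both counts rested on all 4 tumors compared. Without exoCDN2 tumor 1 or 2 or CDN2 (20 µg) tumor 1 or 2 the first was 0, 1, 1 and 0, and without CDN2 (100 µg) tumor 1 or 2 or CDN2 (20 µg) tumor 1 or 2 the second was 14, 0, 0 and 0.

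Leading interferon genes were not called different from CDN2 (20 µg) in either comparison, and exoCDN2 was not tested against CDN2 (100 µg). Usp18 stood at 353 and 412 CPM with exoCDN2 (0.1 µg), 306.5 and 319.8 CPM with CDN2 (20 µg) and 216 and 232 CPM with CDN2 (100 µg). Set against CDN2 (20 µg), its log2 fold change was 0.29 ± 0.20 (adjusted p = 0.449) in exoCDN2 and -0.48 ± 0.20 (adjusted p = 0.255) in CDN2 (100 µg). Ifnb1 stood at 24.1 and 20.1 CPM with exoCDN2 and at 40.6 and 36.8 CPM with CDN2 (100 µg), both within the span of the 2 CDN2 (20 µg) tumors. Of the 49 antiviral genes none differed between exoCDN2 and CDN2 (20 µg), and 2 were lower with CDN2 (100 µg). Of 17 class I presentation genes 8 were lower with CDN2 (100 µg) than with CDN2 (20 µg). H2-D1, a class I heavy chain, was lower by a log2 fold change of -2.10 (adjusted p = 0.0316), and by -1.77 (adjusted p = 0.0433) in exoCDN2.

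Some vascular genes were higher in the other agonist groups than with CDN2 (20 µg), while most were not called different. Of 30 endothelial genes 6 were higher with exoCDN2 (0.1 µg) than with CDN2 (20 µg) and 8 were higher with CDN2 (100 µg) than with CDN2 (20 µg), with none lower in either. Kdr stood at 11.6 and 13.5 CPM with exoCDN2, a log2 fold change of 1.67 ± 0.26 over CDN2 (20 µg) (adjusted p = 0.0381), and at 9.54 and 15.01 CPM with CDN2 (100 µg) (1.64 ± 0.26, adjusted p = 0.0309). Pecam1 stood at 35.2 and 35.6 CPM with exoCDN2 (1.49 ± 0.25, adjusted p = 0.0381) and at 30.7 and 43.2 CPM with CDN2 (100 µg) (1.56 ± 0.26, adjusted p = 0.0316). The larger free amount therefore had the higher level of both genes, and as stated nearly all of these calls rested on all 4 tumors. Apln stood at 6.74 and 10.9 CPM with exoCDN2 (1.51 ± 0.34, adjusted p = 0.0574) and at 3.33 and 5.25 CPM with CDN2 (100 µg) (0.46 ± 0.34, adjusted p = 0.52). Esm1 stood at 6.08 and 8.38 CPM with exoCDN2 (1.15 ± 0.40, adjusted p = 0.148) and at 7.64 and 12.1 CPM with CDN2 (100 µg) (1.60 ± 0.41, adjusted p = 0.0866). Neither tip cell gene was called in either comparison. Nrarp and Sox18 were not called either, and both lay below the 2 PBS tumors in every agonist group. Nrarp stood at 0.64 and 0.976 CPM with exoCDN2 and at 0.37 and 1.6 CPM with CDN2 (100 µg). Sox18 stood at 0.92 and 1.39 CPM with exoCDN2 and at 0.468 and 1.9 CPM with CDN2 (100 µg). With unloaded EVs Kdr stood at 17.0 and 11.0 CPM and Apln at 10.12 and 13.6 CPM, and against EVs both were lower with CDN2 (20 µg), by a log2 fold change of -1.83 (adjusted p = 0.00143) and -1.93 (adjusted p = 0.00568). Of the 30 endothelial genes 12 were called lower against EVs. Col15a1 was called there too (-1.01, adjusted p = 0.00321). Col4a1 (-0.70, adjusted p = 0.0671), Col4a2 (-0.70, adjusted p = 0.0272, ratio under 2) and Angpt2 (-0.71, adjusted p = 0.0959) were not.

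**Figure D5:**
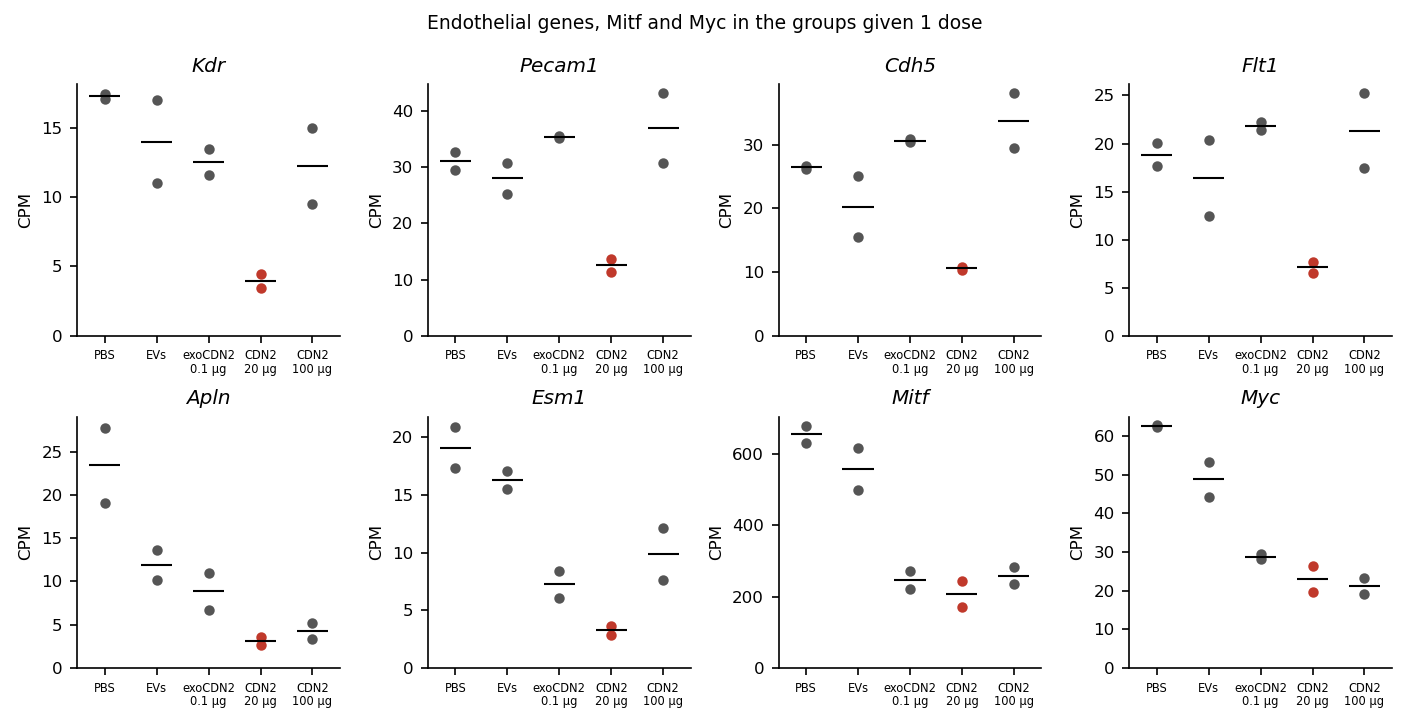
Level in CPM of 6 endothelial genes, Mitf and Myc in each tumor (points) of the 5 groups given 1 dose, with the mean of each pair as a line and CDN2 (20 µg) in red. Kdr, Pecam1, Cdh5 and Flt1 are lowest in CDN2 (20 µg), whereas Mitf and Myc lie below the PBS tumors in all 3 agonist groups.

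Mitf and Myc were not called different from CDN2 (20 µg) in either comparison. Mitf stood at 272 and 221 CPM with exoCDN2 (0.1 µg) and at 234 and 282 CPM with CDN2 (100 µg), with adjusted p of 0.751 and 0.71 against CDN2 (20 µg), and Myc at 29.4 and 28.1 CPM and at 19.0 and 23.3 CPM, with adjusted p of 0.436 and 0.821. Other genes differed from CDN2 (20 µg) in 1 or both comparisons. All 5 erythroid genes were lower in exoCDN2 than in CDN2 (20 µg) and none was called in CDN2 (100 µg), Hbb-bs standing at 150.5 and 210 CPM with exoCDN2 (-2.38 ± 0.49, adjusted p = 0.0467) and at 479 and 579 CPM with CDN2 (100 µg) (-0.83 ± 0.47, adjusted p = 0.405). Bbc3 stood at 8.16 and 8.46 CPM with exoCDN2, near the PBS level and below CDN2 (20 µg) (-1.23 ± 0.16, adjusted p = 0.0339), and at 23.4 and 19.4 CPM with CDN2 (100 µg) (0.13 ± 0.16, adjusted p = 0.713). Mest was higher than with CDN2 (20 µg) in both, at 21.02 and 23.7 CPM with exoCDN2 (1.56 ± 0.21, adjusted p = 0.0339) and at 18.7 and 20.3 CPM with CDN2 (100 µg) (1.36 ± 0.21, adjusted p = 0.0309).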

How the data were processed

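Tumor RNA was sequenced on an Illumina HiSeq as paired reads, and the authors aligned it to GRCm38 with OSA in OmicSoft ArraySuite 10.1 and estimated counts with RSEM on Ensembl gene models. The deposited values are RSEM expected counts, rounded here to whole numbers. Whether counting used strand is not given in the sources used here, so antisense partners cannot be told apart. Symbols and coordinates came from GENCODE M21 for 50376 of 50600 genes, and promoters from RefSeq (GRCm38.p6).

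Counts of 16 tumors in 8 groups were fitted in edgeR 4.0.16 (R 4.3.3) with TMM factors and the quasi-likelihood test, which leaves 8 residual degrees of freedom. Both tumors given 2 doses of an amount of CDN2 that their labels do not state were left out. Genes needed a count of 10 in 2 tumors and a total of 15. The exact test over 2 against 2 tumors cannot go below p = 0.333, so no single value was tested alone. Replicates were separate tumors. Intervals and floors cover counting error only. Scripts were tested on simulated counts.

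Genes were named from the smallest p, the largest fold change and 32 gene lists, and 6 more lists and further genes were chosen after the values were seen. Counts from these 6 lists are therefore no separate evidence of a direction. The comparison and the lists were chosen with earlier results of these data known. Alternatives included DESeq2 1.42.0, other filters and factors, other controls and leaving out each tumor.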

Additional observations from a re-analysis of the deposited data

How the results depend on the processing

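The count of 532 changed genes (382 higher, 150 lower) moved by more than 1.5 times with no filter on low counts (1076, 655 and 421) and when tumors given 2 doses of PBS were added to the controls (930, 622 and 308). The count of lower genes also did so with DESeq2 (247), in a fit of the 4 tumors alone (252) and without the 2 tumors given 2 doses of CDN2 (20 µg) (265), an alternative chosen after seeing the data. With each tumor left out in turn the counts ranged from 167 to 555 changed, 135 to 410 higher and 25 to 145 lower. Genes that differed between exoCDN2 (0.1 µg) and CDN2 (20 µg), 103 in all, numbered 386 with DESeq2, 65 with RLE factors, 707 with no filter, 354 in the 4 tumors alone, 180 with no limit on the ratio and 0 to 1 with a tumor left out. Genes that differed between CDN2 (100 µg) and CDN2 (20 µg), 77 in all, numbered 403 with DESeq2, 800 with no filter, 335 in the 4 tumors alone and 0 to 14 with a tumor left out. The replicate numbers of the labels were not taken to pair the tumors, since nothing in the labels ties them and deviations of equal numbers correlated from -0.304 to 0.38 over 28 pairs of groups and passed 0.1 in 5, although CDN2 (20 µg) and PBS after 1 dose, the groups compared, had 0.318. With the replicate number as a block 514 genes changed (367 higher, 147 lower), and 0 and 48 differed in the 2 direct comparisons. The cause of these changes was not tested, except that fits without a filter tested 28330 genes. No called gene named here changed direction under any alternative run, and of the 532 calls 520 were also made by DESeq2 and 432 against unloaded EVs. With 2 tumors a group, changes near 2-fold and genes under 1 CPM are the least certain.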

Other observations

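Several inflammatory genes differed widely between CDN2 (20 µg) and PBS without passing the test. Csf3, the neutrophil growth factor G-CSF, stood at 0.75 and 3.41 CPM against 0.0662 and 0.06 CPM (log2 fold change 4.98 ± 1.32, adjusted p = 0.0604). Ptgs2, the inducible prostaglandin enzyme COX-2, stood at 8.82 and 37.4 CPM against 1.41 and 1.62 CPM (3.92 ± 1.13, adjusted p = 0.0853). In both, CDN2 tumor 2 held several-fold more than tumor 1. Vcam1, an adhesion molecule of activated endothelium, stood at 19.9 and 49.9 CPM against 11.4 and 14.5 CPM (1.43 ± 0.55, adjusted p = 0.208). Wide differences without a call also ran the other way, many of them in skin genes. Krt6a, a keratin, stood at 2.33 and 0.671 CPM against 59.4 and 33.3 CPM (-4.94 ± 2.05, adjusted p = 0.253). These genes were picked after their values were seen.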
